A study of Mus musculus with 2 samples.

Results

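The Reg genes encode small secreted proteins of the C-type lectin fold. The 7 mouse members Reg1, Reg2, Reg3a, Reg3b, Reg3d, Reg3g and Reg4 were selected by gene symbol from 2 expression tables that each listed 18944 genes. Of the 7, 6 were listed in both tables, and 5 reached 1 FPKM, a count of fragments divided by transcript length in kilobases and by the library total, in at least 1 library. The set was proposed with results of the same KO against WT contrast in view, so the differences between the libraries are given as a description with no test.

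Both libraries were made from total RNA of cultured cells labelled as mouse intestinal stem cells, from animals aged 2 months. The 2 genotype labels were Lgr5GFP-CreERT2 WT, called WT here, and Lgr5GFP-CreERT2 Stat6 KO, called KO. Both thus carry the Lgr5 reporter allele, from which GFP and a tamoxifen-activated Cre are made in cells that express Lgr5, the marker of crypt base stem cells. The KO cells were made with a lentivirus carrying CRISPR/Cas and guides against Stat6, the transcription factor downstream of IL-4 and IL-13. The labels do not say whether the KO culture was 1 clone or whether any virus was given to the WT cells. The medium, the same for both, contained EGF, R-spondin 1, N-acetylcysteine and the kinase inhibitor Y27632, and no interleukin is named. There was 1 library per genotype, so no difference has a replicate check. Intervals below cover the counting error of estimated reads alone.

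As background, REG3G and REG3B are antibacterial lectins that gut epithelium releases into the lumen, REG3G acting mainly on Gram-positive bacteria. Enterocytes and Paneth cells make them, and IL-22 acting through STAT3 and microbial signals acting through MyD88 are their best known inducers. Reg1 and Reg2 were first studied in pancreatic islets and acinar tissue, and Reg3d is known mainly from pancreas. Reg4 marks secretory cells of the crypt, including deep crypt secretory cells of the colon and some enteroendocrine cells.

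Of the members, 6 are consecutive protein-coding genes on chromosome 6 in the GRCm38 annotation. Their order is Reg3b, Reg3d, Reg3a, Reg2, Reg1 and Reg3g, and Reg4 lies on chromosome 3. The coding sequences of Reg3b and Reg3g were 76.4% identical over 522 aligned bases, those of Reg1 and Reg2 82.6%, and Reg4 was 57.4% to 63.2% identical to each of the others. Reads of 50 bases were the unit of counting, so it matters whether a read can be told apart between members. The longest identical coding stretch of Reg3b and Reg3g, shown because it is the place where their reads are most alike, spans bases 26 to 60 of both coding sequences and is 35 bases long.
Reg3b and Reg3g, GENCODE M21: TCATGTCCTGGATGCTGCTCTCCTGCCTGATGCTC

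No stretch of 50 bases in the transcript of any member occurred in the transcript of another member or of any other annotated gene. The closest approach was 3 mismatches in 50 bases, between Reg3b and Reg3g, and Reg1 came within 4 of Reg2. On this reference sequence an error-free read therefore belonged to 1 Reg gene, and the members' values can be read 1 by 1.

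The promoters are shown for motifs of the STAT pathway under study and for the TATA element, with examples from members with unlike ratios. RefSeq promoter sequences (GRCm38.p6, 250 bases before to 50 bases after the start site) were matched by symbol for 7 of 7 members. The stretches from 100 to 21 bases before the start of Reg3b (chr6:78370785-78370864, plus strand), Reg3g (chr6:78468895-78468974, minus strand) and Reg3a (chr6:78380609-78380688, plus strand) follow, with each TATAAA, the core of the TATA element, in capitals.
Reg3b: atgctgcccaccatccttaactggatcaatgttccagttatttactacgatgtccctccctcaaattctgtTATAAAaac
Reg3g: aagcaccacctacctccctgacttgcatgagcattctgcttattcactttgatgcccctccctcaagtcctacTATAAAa
Reg3a: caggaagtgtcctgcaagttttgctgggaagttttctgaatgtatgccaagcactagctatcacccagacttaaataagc

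Reg3b and Reg3g, the 2 most abundant members, have TATAAA 29 and 27 bases before the start, and Reg1 and Reg2 have it 30 bases before. Reg3g has a second match on the reverse strand 161 bases before the start, and Reg1 one on the reverse strand after the start. Reg3a, Reg3d and Reg4 have none in the window. TATAAA did not divide the members by the direction of their ratios, as Reg1 was higher in KO and Reg4 lower. In all 4 of 7 member promoters held TATAAA on either strand, and 13.6% of 32851 promoters of the same length did. Over the 250 bases before the start, Reg3b was 70.0% identical to Reg3g over 247 aligned bases, and Reg3a was 70.1% identical to Reg3g over 201.

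STAT dimers bind palindromes whose half-sites are TTC and GAA. The form with 3 bases of any kind between them (TTCNNNGAA) is bound by most STAT factors, and the form with a spacer of 4 is the one STAT6 prefers. The matches in the member promoters, with the palindrome in capitals and up to 20 bases on each side, lie at chr6:78425733-78425768 (Reg1, plus strand), chr6:78370736-78370784 (Reg3b, plus strand) and chr6:78379075-78379115 (Reg3d, minus strand).
Reg1: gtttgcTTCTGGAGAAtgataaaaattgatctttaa
Reg3b: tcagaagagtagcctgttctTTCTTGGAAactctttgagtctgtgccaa
Reg3d: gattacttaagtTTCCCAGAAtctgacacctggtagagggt

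The Reg3b match has the spacer of 3 and starts 129 bases before the start site, and the Reg3d match has the same form at 238 bases. The Reg1 match has the spacer of 4 and begins 244 bases before the start. Both forms read the same on either strand, and no match overlapped another motif. The form with a spacer of 3 was found in 2 of 7 member promoters and in 8.30% of all promoters, and the form with a spacer of 4 in 1 of 7 and 6.95%. A match describes letters in this window and is not a binding site, and the window of Reg3g held neither form.

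**Figure D1:**
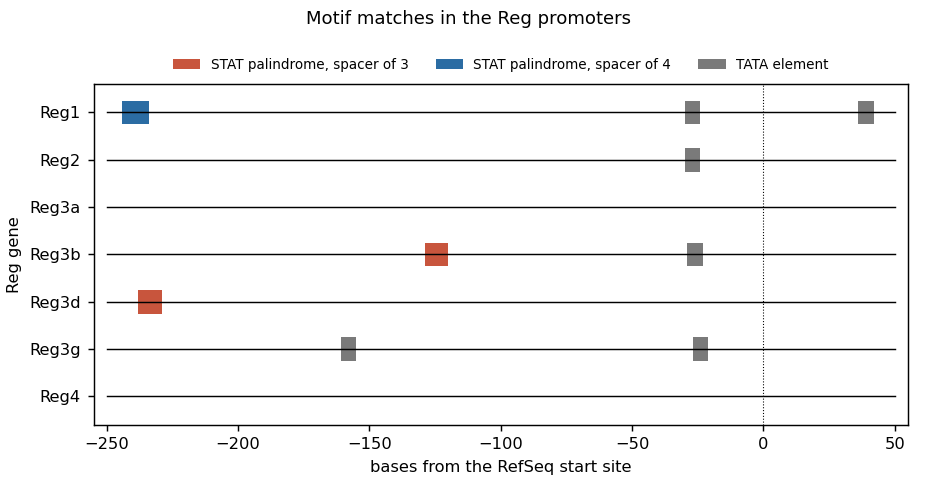
Positions of motif matches in the promoters of the 7 Reg genes; the x axis is the distance in bases from the RefSeq start site, and bars mark STAT palindromes with a spacer of 3 (red) or 4 (blue) and TATA elements on either strand (grey). Reg1, Reg2, Reg3b and Reg3g carry a TATA element 27 to 30 bases before the start, and a STAT palindrome appears in Reg1, Reg3b and Reg3d.

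The tables hold no read counts. From the steps of low values, the depth was about 19900000 reads in WT and 20100000 in KO. The comparison took in 12079 genes, those with 1 FPKM or more in either library. The log2 ratio used throughout is log2((KO + 1)/(WT + 1)) of the FPKM values, and its added 1 pulls low genes toward 0. Higher and lower in the counts below mean a log2 ratio of 1 or more in size, which is 2-fold on that scale. The median log2 ratio over all 12079 genes was -0.18. By this limit 2.44% of them were higher in the KO library and 2.18% lower, a split of 52.9% and 47.1% that became 72.4% and 27.6% with a TMM factor (a trimmed mean of log ratios). With a pseudocount of 0.1 the split was 38.2% and 61.8%, with one of 5 it was 69.6% and 30.4%, and with the median of all genes set to 0 it was 71.9% and 28.1%.

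The family divided by abundance. Its 3 abundant members, Reg3g, Reg3b and Reg4, were all lower in the KO library, and its 2 low members, Reg1 and Reg3a, were both higher. At 2-fold, 2 of the 5 measured members were higher in KO (Reg1 and Reg3a), 1 was lower (Reg3g), and Reg3b and Reg4 stayed within 2-fold. The shares of all genes past the same limits are the 2.44% and 2.18% given above. The median log2 ratio of the 5 members was -0.56, against -0.18 over all measured genes, and it stands between 2 members with positive and 3 with negative values.

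Reg3g (Entrez gene 19695) was the most abundant member in both libraries. It was at 358.05 FPKM in WT and 164.76 in KO, levels above those of 98.9% and 97.6% of the listed genes. About 5237 and 2434 reads stand behind these levels. WT was therefore 2.17-fold higher (2.07 to 2.28), a log2 ratio of -1.12, and only 1.64% of the measured genes had a lower one. With the TMM factor the log2 ratio was -0.88, which is under 2-fold.

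Reg3b (Entrez gene 18489), the partner of Reg3g with activity mainly against Gram-negative bacteria, was second in both libraries. Its level was 186.64 FPKM in WT and 124.96 in KO, from about 2774 and 1876 reads. The WT level was 1.49-fold higher (1.41 to 1.58), a log2 ratio of -0.58, and 12.0% of the measured genes lay lower. Reg3b was thus on the same side as Reg3g, with a smaller difference. The ratio of Reg3g to Reg3b was 1.92 (1.83 to 2.01) in WT and 1.32 (1.24 to 1.40) in KO, and these intervals do not overlap.

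Reg4 (Entrez gene 67709), the secretory cell member on chromosome 3 and the next in level, stood at 150.08 FPKM in WT and 101.13 in KO, from about 2942 and 2002 reads. WT was 1.48-fold higher (1.40 to 1.57), with a log2 ratio of -0.56. Reg4 and Reg3b, which lie on different chromosomes, kept nearly the same proportion in both libraries, with Reg3b at 1.24 times Reg4 in WT (1.18 to 1.31) and 1.24 times in KO (1.16 to 1.32). The ratio of Reg3g to Reg4 was 2.39 in WT (2.28 to 2.50) and 1.63 in KO (1.54 to 1.73), so Reg3g was lower in KO by more than either of the other abundant members, beyond counting error.

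Reg1 (Entrez gene 19692) was on the other side at a far lower level. It was at 4.60 FPKM in WT and 13.41 in KO, from about 67 and 198 reads. KO was 2.92-fold higher (2.21 to 3.92), which is 1.54 on the log2 scale without the added 1. With the added 1 the log2 ratio was 1.36, and 98.8% of the measured genes had a lower one. In WT its level was near the middle of the listed genes, above 52.9% of them, and in KO it was above 72.6%. Reg3g exceeded Reg1 77.8-fold in WT (61.3 to 100.7) and 12.3-fold in KO (10.6 to 14.2).

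Reg3a (Entrez gene 19694), between Reg3d and Reg2 in the cluster, was the lowest member with reads. Its level was 2.57 FPKM in WT and 6.35 in KO, from about 40 and 101 reads. KO was 2.47-fold higher, with a counting interval of 1.72 to 3.70 that reaches below 2-fold, and the log2 ratio was 1.04. With a pseudocount of 5 it was 0.58 and that of Reg1 was 0.94, so neither passed 2-fold on that scale. Reg1 stood at 1.79 times Reg3a in WT (1.20 to 2.74) and 2.11 times in KO (1.65 to 2.71).

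Reg3d (Entrez gene 30053) was listed at 0 in both libraries. A limit of 3 reads corresponds to 0.202 FPKM in WT and 0.200 in KO, so a lower level was not detectable at this depth. Reg2 had no row in either table and was not analysed here.

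**Figure D2:**
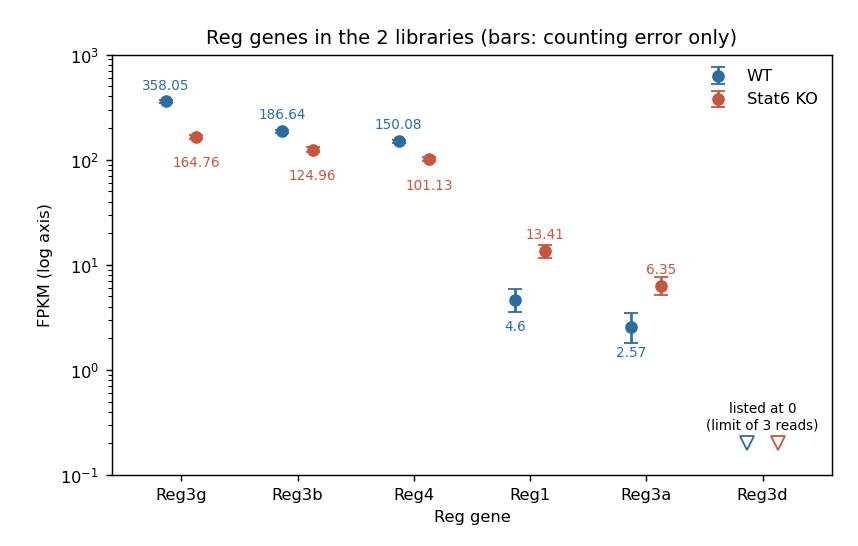
FPKM (log axis) of the 6 listed Reg genes in the WT (blue) and Stat6 KO (red) libraries, with bars for the 95% counting interval of the estimated reads; open triangles mark the limit of 3 reads for Reg3d, listed at 0. Reg3g, Reg3b and Reg4 lie above 100 FPKM and are higher in WT, whereas Reg1 and Reg3a lie below 14 FPKM and are higher in KO.

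The order of levels was the same in both libraries, Reg3g first, then Reg3b, Reg4, Reg1, Reg3a and Reg3d. Each neighbouring pair among the first 5 was separated by more than counting error in both libraries, while the spread between cultures is unknown. The gap between the abundant and the low members was narrower in KO, where Reg4 exceeded Reg1 7.54-fold (6.50 to 8.75) against 32.6-fold in WT (25.7 to 42.3).

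Summed over the family, 701.9 FPKM in WT stood against 410.6 FPKM in KO, which is 0.139% and 0.0827% of all FPKM. The sum was 1.71-fold higher in WT, a log2 difference of -0.77 without a pseudocount, and -0.48 when Reg3g was left out. Reg3g, Reg3b and Reg4 together made up 99.0% of the family's FPKM in WT and 95.2% in KO. Reg1 and Reg3a together were 1.02% of it in WT and 4.81% in KO, at 7.17 and 19.76 FPKM. In absolute terms the KO minus WT difference was 8.81 FPKM for Reg1 and 3.78 FPKM for Reg3a, against -193.3 FPKM for Reg3g, -61.7 for Reg3b and -49.0 for Reg4.

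**Figure D3:**
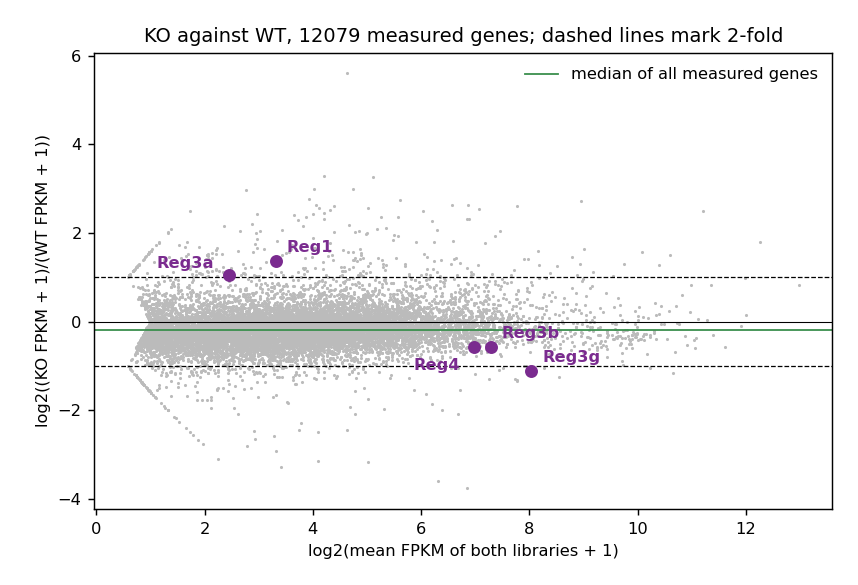
Log2 ratio of KO to WT (y axis, pseudocount of 1) against mean level (x axis, log2 of mean FPKM + 1) for 12079 measured genes (grey) with the 5 measured Reg genes in purple; dashed lines mark 2-fold and the green line the median of all genes, -0.18. Reg1 (1.36) and Reg3a (1.04) lie above the upper line, Reg3g (-1.12) below the lower one, and Reg3b (-0.58) and Reg4 (-0.56) between them.

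Genes nearest to Reg3g and Reg3b in level and ratio were sought among 11359 other measured genes, by distance between log2(FPKM + 1) values over the 2 libraries. With only 2 libraries any gene of like level and ratio is near. For Reg3g they were Chgb, an enteroendocrine granule protein (323.99 and 162.23 FPKM, distance 0.15), Ly6a (316.7 and 157.41 FPKM, 0.19), Cystm1 (0.31), Cldn2 (0.44) and Pdlim1 (0.45). For Reg3b they were Psma7, Ifitm2, Hnrnpa1, Cct7 and C1qbp, at distances of 0.02 to 0.08.

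Genes of the route by which IL-22 and related cytokines reach STAT3 were measured in part. Il22ra1, the epithelial chain of the IL-22 receptor, was at 19.19 FPKM in WT and 19.44 in KO (log2 ratio 0.02). Stat3 was at 28.41 and 31.54 FPKM (0.15). Receptor chains for related cytokines differed in level. Il6ra (0.29 and 0.16 FPKM), Osmr (0.16 and 0.12) and Lifr (0.58 and 0.68) were under 1 FPKM in both libraries. Il11ra1, the IL-11 receptor chain, was at 4.34 FPKM in WT and 3.3 in KO. Of 12 measured genes in the list for IL-22, IL-6 and gp130 signalling to STAT3, 0 were past 2-fold in either direction, with a median of -0.18, equal to that of all genes. Its extremes were Jak2 (0.39) and Il10rb (0.28), the second IL-22 receptor chain, and Il6st, which encodes gp130 (-0.56), and Tyk2 (-0.37).

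Other epithelial genes known to respond to IL-22 or STAT3 lay on both sides, as the Reg genes did. At 2-fold, 3 of 13 measured genes were higher in KO and 1 lower, with a median of -0.29. Il18, an epithelial cytokine, was at 20.47 FPKM in WT and 54.93 in KO (1.38), the tryptophan-degrading enzyme Ido1 at 3.97 and 11.66 FPKM (1.35), and Pigr, the carrier of IgA into the lumen, at 209.29 and 451.9 FPKM (1.11). The secreted phospholipase Pla2g2a was lower in KO (235.0 and 110.62 FPKM, -1.08), near Reg3g in ratio, followed by the acute phase gene Saa1 (-0.96).

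In the list for microbe sensing through MyD88 and NOD proteins, 0 of 17 were past 2-fold in either direction and the median was -0.16. Ticam1 (0.61), an adaptor that signals without MyD88, and Ripk2 (0.14) were highest, and the lipopolysaccharide co-receptor Cd14 (-0.68) and Tlr1 (-0.66) lowest. The IL-17 receptor and IL-18 list had 1 of 9 higher, Il18, and 0 lower, with a median of 0.13 and with Il17rc at 0.71, Il18bp at -0.40 and Traf3ip2 at -0.32. The IL-4 and IL-13 route to STAT6 had 0 of 11 higher and 1 lower, the shared receptor chain Il2rg (-1.19), with a median of -0.05. In that list Il13ra1 (0.52) and Irs2 (0.51) were highest and Jak3 (-0.52) second lowest. Stat6 itself was at 41.3 FPKM in WT and 44.18 in KO, and since a small CRISPR lesion can leave RNA levels intact, the label cannot be checked this way.

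Of 8 candidate receptors and partners of REG proteins, 1 was at least 2-fold lower in KO and 0 were higher. Extl3, reported as a REG receptor, was at 7.53 FPKM in WT and 4.86 in KO (-0.54), and Egfr, which REG proteins have been reported to engage, had a log2 ratio of -0.69. Cd44, a partner reported for REG4, was the gene past 2-fold, at 85.88 and 28.84 FPKM (-1.54). The median was -0.40, with Ext1 (0.64) and Extl1 (0.21) highest.

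Other secreted antibacterial proteins lay on both sides of 0. Of 17 measured genes 0 were at least 2-fold higher and 1 lower, Pla2g2a, and the median was 0.21. The peptidoglycan-binding protein Pglyrp1 was lower (-0.78), and the lysozyme Lyz1 (0.40) was on the other side of 0. The listed lectins were on both sides. Itln1 (0.37), Zg16 (0.24) and Lgals4 (0.21) were above 0, and Lgals3 was lower in KO (1039.04 and 631.99 FPKM, -0.72). The highest were Sprr2a3 (0.83) and Sprr2a2 (0.82), near-identical copies whose single values are uncertain.

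**Figure D4:**
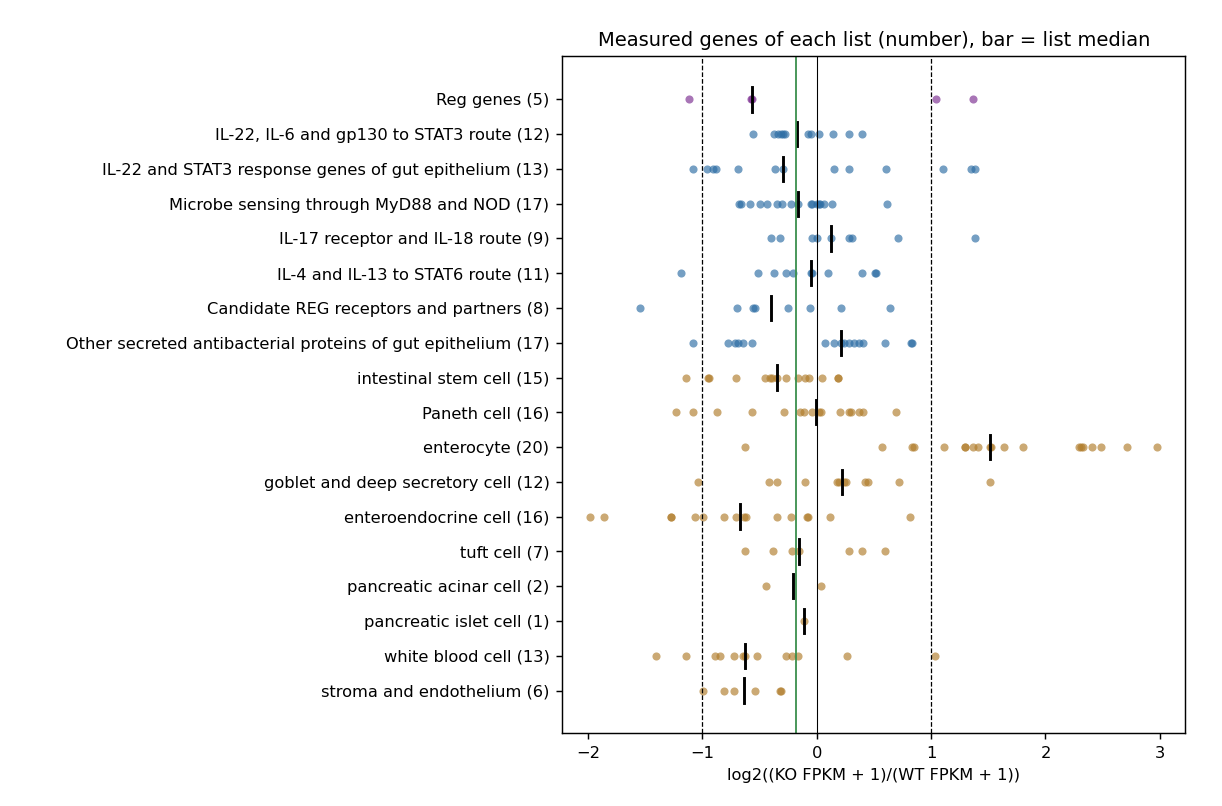
Log2 ratios of KO to WT (x axis) for the measured genes of each list, with the number measured in brackets and a black bar at the list median; Reg genes are purple, pathway lists blue and cell type markers brown, dashed lines mark 2-fold and the green line the median of all genes. The Reg genes lie at both ends with a gap from -0.56 to 1.04, and the enterocyte list is shifted as a whole, with a median of 1.52.

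Markers of the cell types that make Reg proteins also differed in level between the libraries, and fewer cells of a type cannot be told apart from less RNA per cell in such bulk data. The labelled stem cell type had its marker Lgr5 at 1.79 FPKM in WT and 1.88 in KO, and 15 stem cell markers summed to 310.3 and 237.0 FPKM (0 higher, 1 lower, Sox9 at -1.14, median -0.35). Other stem cell extremes were Tnfrsf19 and Smoc2, both at 0.19, and Msi1 (-0.95). Enterocyte markers were far higher in KO, summing to 6095 FPKM in WT and 20075 in KO. Of 20 there were 16 at least 2-fold higher and 0 lower, with a median of 1.52. Lct (2.98) and Apoa1 (2.71) were highest, and the others included Fabp2, Slc2a2, Sis, Slc5a1, Slc15a1, Fabp1, Apoa4, Treh, Rbp2, Alpi, Apoc3, Mttp and Anpep, from 2.48 for Fabp2 to 1.29 for Anpep. Vil1 (0.57) and Ada (-0.63) were lowest. Reg1 and Reg3a lay on the same side as these markers and Reg3g, Reg3b and Reg4 on the other, and the part of the markers in the Reg differences was not tested.

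Paneth cell markers summed to nearly the same level, 2888 FPKM in WT and 2919 in KO, with 0 of 16 higher and 2 lower, Mptx2 (-1.23) and Pla2g2a (-1.08), a median of -0.01, and Habp2 (0.69) and Lyz1 (0.40) highest. The most abundant of them, the defensin Defa24, was at 824.42 and 846.23 FPKM. Defa3 (-0.87) lay on the side of Reg3g, while the other listed defensins ran from Defa20 (-0.29) to Defa24 (0.04). Whether reads can be told apart between defensin genes was not checked, so their single values are uncertain. Goblet and deep secretory markers had 1 of 12 higher, Clca1 (1.52), and 1 lower, Agr2 (-1.04), with a median of 0.22, Muc2 at 0.72 and Spink4 at -0.42. Enteroendocrine markers, of cells that can express Reg4, summed to 1081 FPKM in WT and 600 in KO, with 0 of 16 higher and 5 lower. They ran from Tph1 (-1.98) and Gcg (-1.86), past Nts (-1.28), Scg2 (-1.27) and Pyy (-1.06), to Ghrl (0.12) and Neurog3 (0.82), with a median of -0.67. Their part in the Reg differences was not tested.

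Tuft markers had 0 of 7 past 2-fold and a median of -0.16, with Lrmp (0.60), Alox5ap (0.40), Avil (-0.63) and Hpgds (-0.38) at the ends. Pancreatic markers were checked because pancreas makes much Reg protein. Of 22 acinar markers only 9 were listed and 2 were measured, Clps (8.30 and 8.54 FPKM) and Cela1 (5.87 and 4.04 FPKM). Both were above Reg1 and Reg3a in WT and below Reg1 in KO. Of the other listed acinar markers, Ctrb1 was at 0 in WT and 0.06 FPKM in KO, and Cela2a was at 0 in both. Of 8 islet markers 5 were listed and 1 was measured, and the list summed to 2.97 FPKM in WT and 2.71 in KO. Pancreatic markers that were not listed, among them Prss1, Cpa1, Ins1 and Ins2, could not be checked. White blood cell markers summed to 57.3 FPKM in WT and 34.1 in KO, with 1 of 13 higher and 2 lower, Cd68 (-1.40) and Coro1a (-1.14), and a median of -0.63. Itgam, within 2-fold, was at 0.27. Stromal and endothelial markers summed to 16.0 and 8.17 FPKM, with 0 of 6 past 2-fold and a median of -0.63. They ran from Dcn (-1.0) and Pecam1 (-0.81) to Kdr (-0.33) and Thy1 (-0.31). At such low levels the counts depend on the pseudocount. With one of 0.1, 3 stromal and endothelial markers were at least 2-fold lower and 0 higher. Of the white blood cell markers 6 were then lower and 1 higher. These lists were lower in KO, as Reg3g was, and their part in its difference was not tested.

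**Figure D5:**
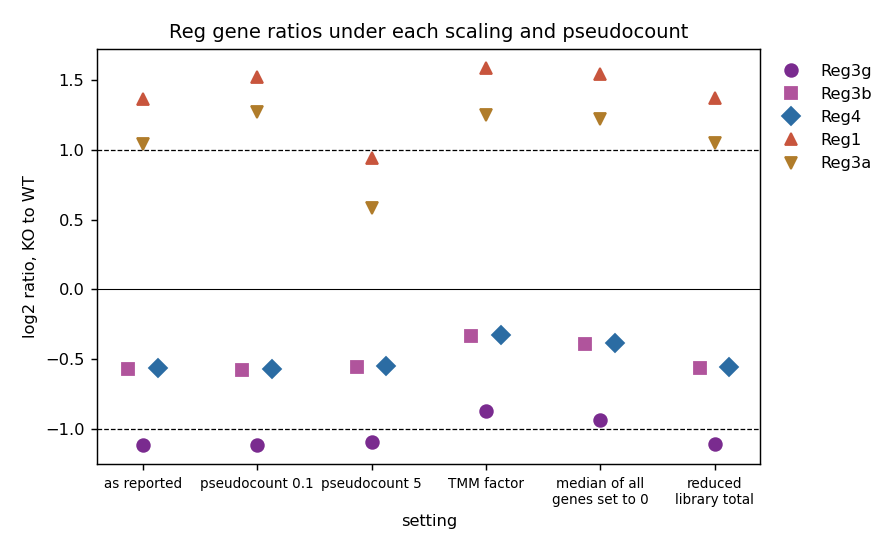
Log2 ratio of KO to WT (y axis) of the 5 measured Reg genes under the reported setting and 5 alternatives of pseudocount or scaling (x axis), with dashed lines at 2-fold. The signs are the same in all 6 settings, of which only the other scalings could have changed them. Reg1 and Reg3a lie below the upper line with a pseudocount of 5. Reg3g lies inside the lower line with the TMM factor (-0.88) and with the median of all genes set to 0 (-0.93).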

How the data were processed

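RNA sequencing of 1 WT and 1 Stat6 KO library was used, grouped by the genotype labels. The deposited values are FPKM per gene, rounded to 2 decimals, per the file headers. HISAT, Bowtie2, RSEM and the mm9 build are named in the submitters' processing notes, with no versions, roles or gene annotation. Per the labels' protocols reads were single-end, of 50 bases, 59000000 per sample on average, above the estimate of mapped reads below. The authors' FPKM divides by a library total, so abundant genes that differ move all others.

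The tables were joined on Entrez gene number. The measure was log2((KO + 1)/(WT + 1)) over genes with a level of 1 FPKM or more in either library, with a limit of 2-fold. With 1 library per genotype no test was made. Depth was estimated from values of up to 5 reads in genes with 1 transcript, as the depth and length correction that put most of them within 0.1 of a whole read (86.0% in WT, 85.2% in KO, 20% if spread evenly). Depths of up to 30000000 reads were searched. At the double of the estimate 94.9% and 95.6% of such values are even numbers of reads, so the lower depth was kept. Intervals are exact 95% intervals (Poisson for levels, Clopper-Pearson for ratios) on these estimated reads and cover counting error only. Transcripts were GENCODE M21 and promoters RefSeq GRCm38.p6, matched by symbol. These coordinates are not those of mm9.

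The members and the 7 pathway and 10 cell type lists were chosen with earlier results of these data known. Named genes are the members, Stat6, Stat3, Il22ra1, Extl3, the 2 highest and 2 lowest of each list, list members past 2-fold (a few are not reported here), and the 5 genes nearest to Reg3g and Reg3b without predicted models, clone names or pseudogenes. Genes named beyond this rule were chosen after their values were seen. Among them are Itln1, Zg16, Lgals3, Lgals4, Lgr5, Ctrb1, Cela2a, Il6ra, Osmr, Lifr, Il11ra1, Defa24, Defa3, Defa20 and Il22. Alternatives were 2 other pseudocounts, 3 other scalings, 3 other minimum levels and 2 other thresholds. The log2 ratio, the TMM factor and the 2-fold calls were tested on simulated data. The depth estimate, the intervals and the sequence searches were not. Python 3.11.15, pandas 2.3.3, SciPy 1.17.1 and Biopython 1.88 were used.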

Additional observations from a re-analysis of the deposited data

How the results depend on the processing

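The log2 ratios of all 5 measured Reg genes kept their sign under the other scalings. Of the 10 alternatives, only the scalings could have changed a sign. Another pseudocount alters the size of a log2 ratio but not its sign. The other minimum levels and thresholds leave the log2 ratio of a gene as it is. With the TMM factor Reg3g, Reg3b and Reg4 had log2 ratios of -0.88, -0.34 and -0.33, and with the median of all genes set to 0 they had -0.93, -0.39 and -0.38, so 0 Reg genes were then at least 2-fold lower. With a pseudocount of 5 Reg1 was at 0.94 and 0 Reg genes were at least 2-fold higher. At a threshold of 4-fold 0 were higher and 0 lower. The summed family level, -0.77 as reported, was -0.53 with the TMM factor, -0.59 with the median set to 0 and -0.48 without Reg3g.

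Among all genes, 295 higher and 263 lower as reported became 374 and 604 with a pseudocount of 0.1, 144 and 63 with 5, 446 and 170 with the TMM factor and 409 and 160 with the median set to 0. They became 224 and 150 with a minimum of 5 FPKM, 237 and 165 with 1 FPKM in both libraries, 689 and 1381 at 1.5-fold and 51 and 27 at 4-fold. The cause was not tested. Of the list medians, those of the STAT3 route, MyD88 and NOD sensing, the STAT6 route and the Paneth and islet lists changed sign with both the TMM factor and the median set to 0, the acinar list with the first, the tuft list with the second, and the IL-22 response and STAT6 lists with a minimum of 5 FPKM. No replicate could be left out, and no paired analysis was possible because there was 1 library per genotype. Depth limits Reg3a most, at about 40 and 101 reads.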

Other observations

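Il22, the ligand best known for inducing Reg3g and Reg3b, is made by lymphocytes. It was at 0.62 FPKM in WT and was listed at 0 in KO, below the level at which genes were compared. Il22 was looked up after the data were seen, and its part in the Reg differences was not tested. Protein-coding genes flanking the chromosome 6 cluster were nearly silent, apart from the predicted gene Gm20594. Lrrtm1 was at 0.24 and 0.12 FPKM, Ctnna2 at 0.24 and 0.10 FPKM and Lrrtm4 at 0 and 0.03 FPKM in WT and KO. Gm20594, next to Reg3g in the order of protein-coding genes, was at 166.34 and 275.26 FPKM. Its distance from Reg3g and the origin of its reads were not examined. Within the cluster Reg3b and Reg3g, at its ends, were lower in KO, and the inner members Reg3a and Reg1 were higher. Of the other inner members, Reg3d was at 0 in both libraries and Reg2 was not listed. Reg4, outside the cluster, was also lower in KO.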
